A study of Bombus terrestris with 8 samples.

Results

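Egg-only regions are stretches of accessible chromatin on the placed chromosomes of *Bombus terrestris*, the buff-tailed bumblebee, that were called in both egg samples and in no sample of a later stage. They were chosen by joining the peak intervals of all 8 samples wherever they overlapped by at least 1 bp and keeping each joined region that held an interval of both egg lists and none of the 6 larval, pupal and adult lists. Of 52844 joined regions on the 18 chromosomes, 994 met this rule, which is 1.88% of all regions and 6.63% of the 14996 regions called in both egg lists. They covered 390.2 kb in all.

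The 8 samples were whole workers from commercial colonies, with 2 samples for each of 4 stages. The egg samples were pools of straight, smooth eggs, and the larval and pupal samples were pools as well, of C-shaped larvae and of pupae with pigmented eyes but without developed wings. An adult sample was a single worker that could flap its wings, and each pool had about the volume of 1 adult. No gene was altered and no treatment was given at any stage, and the exact age of the eggs is not given in the sources used here. Each sample mixes many cell types, so a region open in few cells and a region weakly open in many cells cannot be told apart.

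In ATAC-seq, a transposase inserts sequencing adaptors where DNA is not wrapped tightly on nucleosomes, and places with many insertions are read as open chromatin. Such places are often promoters, where transcription starts, or enhancers, short stretches that bind transcription factors and control a gene from a distance. In insect eggs the embryo first divides on maternal supplies, then starts its own transcription and lays out the body axes. In Drosophila, many of the enhancers that act in this period are opened by early-acting factors such as Zelda. The positions of genes on the assembly behind these lists, Bter_1.0, were not used here, so the regions are given by chromosome and position and not by gene.

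Peaks were called by the authors in each sample separately, so neither egg list drew on the reads of the other. Both lists rest on the same assembly and the same settings, so they are not independent in every respect. These lists hold candidate peaks. For its further work the paper kept only peaks that were reproducible between the 2 replicates of a stage. That filter was not applied here, so an egg-only region need not be among the paper's reproducible egg peaks. For each summit, the highest point of a peak, a list gives a fold enrichment, relative to the local background in its own library, and −log10 (P value). Both were computed by the peak caller from the pileup, which is the number of windows of 200 bp, each centred on a cut end, that cover the summit, and from the background, the number expected there. A single whole pileup reproduced both values of a summit to within 0.005 on the −log10 scale for 99.989% to 100% of the summits of a list, and the pileups and backgrounds below were obtained in this way. The lowest background in a list, which is its genome-wide baseline, was 6.76 windows in egg replicate 1 and 7.70 in egg replicate 2. It was 6.41 and 4.35 in the larval lists, 9.73 and 15.05 in the pupal lists, and 9.04 and 18.2 in the adult lists. By the caller's formula the baseline is proportional to the number of reads behind a list, and it was 4.18 times as high in adult replicate 2 as in larva replicate 2. The lists were thus not made from the same number of reads, and the egg lists lay above the larval ones and below the pupal and adult ones. The paper gives nearly the same number of raw reads for every sample, and what made the baselines differ was not tested. Larva replicate 2, with the lowest baseline, had the most mapped reads.

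Egg-only regions were weak peaks in both egg samples. In egg replicate 1 their fold enrichment had a lowest value of 1.77, a median of 3.48 and a highest value of 8.77. In egg replicate 2 these values were 1.67, 3.06 and 8.39. The mean of the 2 medians was 3.27 ± 0.296 (SD, n = 2). Over all regions in both egg lists the medians were 4.57 and 4.41, so the egg-only regions were lower in both samples. The difference is a description, because a strong peak is more easily found in another list as well and the rule removes it.

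At the summit, the median egg-only region was covered by 31 windows in egg replicate 1 (quartiles 24 and 40) and by 30 windows in egg replicate 2 (24 and 39). The median −log10 (P value) was 9.16 and 7.87, against 16.9 and 19.1 over all regions in both egg lists. A value above 20 was reached by 134 egg-only regions in replicate 1 and by 62 in replicate 2, but by only 7 in both. This was 0.704% of the egg-only regions, beside 30.9% of all regions in both egg lists. Above 10 in both lists were 175 (17.6%), beside 59.3%. Within the placed intervals of its own list, the median egg-only region stood at percentile 41.7 in replicate 1 and at percentile 26.1 in replicate 2. At the stricter q-value limit of 0.01, 958 of the 994 regions (96.4%) were still called in both lists, beside 98.7% of all regions in both egg lists.

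**Figure D1:**
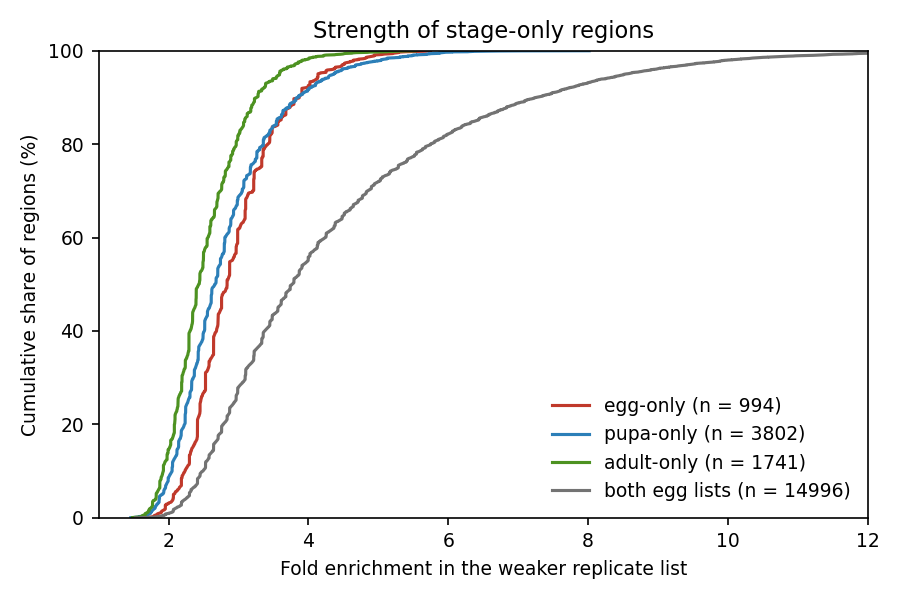
Cumulative share of regions (vertical axis, %) against fold enrichment in the weaker of the 2 replicate lists (horizontal axis), for egg-only, pupa-only and adult-only regions and for all regions in both egg lists. The 3 stage-only curves rise close together, with medians of 2.84 for egg-only, 2.67 for pupa-only and 2.43 for adult-only regions, to the left of the curve of all regions in both egg lists, whose median is 3.77.

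The share of egg-only regions fell with the strength of the peak. Among regions in both egg lists whose weaker fold enrichment was below 2, 31 of 144 were egg-only, which is 21.5% (95% Clopper-Pearson interval 15.1% to 29.1%, counting error only). Between 2.5 and 3 it was 348 of 2670, or 13.03% (11.8% to 14.4%), and between 4 and 5 it was 65 of 2418, or 2.69% (2.08% to 3.41%). Between 5 and 6, 9 of 1537 regions were left. No region with a weaker fold enrichment of 6 or more was egg-only. From 6 to 8 this was 0 of 1649, which allows a share of up to 0.182% by a limit of 3 counts, or up to 0.223% by the Clopper-Pearson interval. On the placed chromosomes, each of the strongest egg regions was therefore called in at least 1 list of a later stage.

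**Figure D2:**
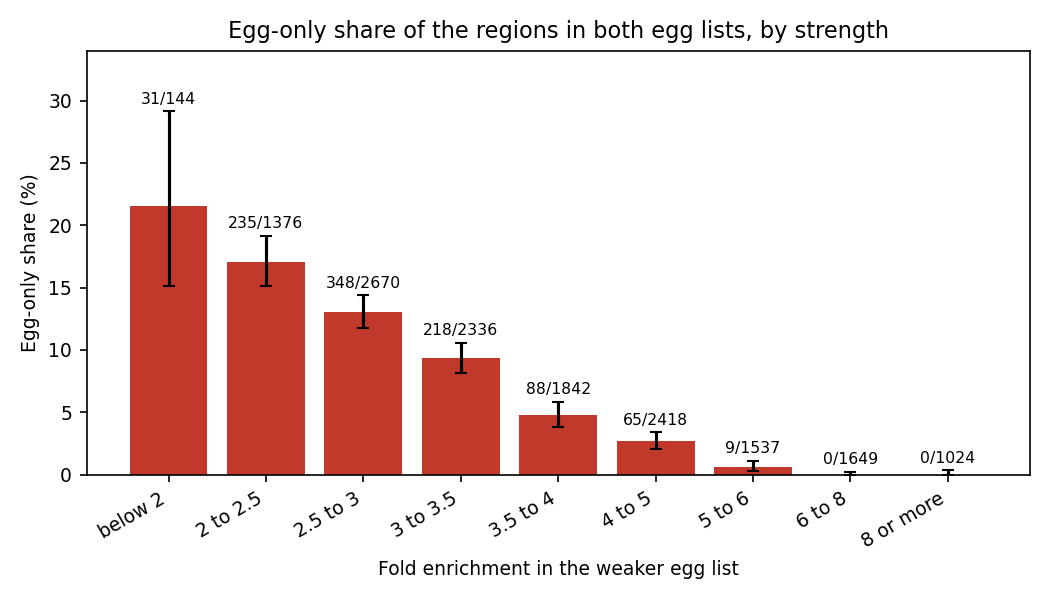
Share of egg-only regions (vertical axis, %) among the regions in both egg lists, by fold enrichment in the weaker egg list (horizontal axis). Bars are shares with 95% Clopper-Pearson intervals and the numbers above them are egg-only regions over all regions in the bin, falling from 31 of 144 below a fold enrichment of 2 to 0 of 1024 at 8 or more.

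How low a fold enrichment a list could hold differed between the libraries. At the baseline background, the lowest fold enrichment listed was 2.16 and 2.43 in the larval lists, 1.86 and 1.68 in the pupal lists, and 1.89 and 1.67 in the adult lists. The weaker fold enrichment of the 2 egg lists lay above the limit of adult replicate 2 in all 994 egg-only regions, above that of adult replicate 1 in 984, above those of pupa replicates 1 and 2 in 985 and 993, and above those of larva replicates 1 and 2 in 929 and 780. The same counts were not made for all regions in both egg lists. The median weaker fold enrichment of those regions was 3.77, beside 2.84 for the egg-only regions. The limits above hold at baseline background, where 49.5% of the egg-only regions lay in egg replicate 1 and 56.2% in egg replicate 2. The part of the calling limits in the choice of the egg-only regions was not tested. The number of egg-only regions moved with the threshold set on the lists. It was 130 with the 12331 strongest intervals of every list, 553 with −log10 (P value) of at least 10 in all 8 lists, and 1151 with a fold enrichment of at least 2.5 in all 8 lists, a setting chosen after seeing the data.

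Just outside the rule lay 829 regions that were called in both egg lists and in exactly 1 other list. That list was pupa replicate 2 for 250 of them, adult replicate 2 for 193, larva replicate 1 for 164, pupa replicate 1 for 135, adult replicate 1 for 71 and larva replicate 2 for 16. The 2 libraries with the highest baseline had the largest numbers. Larva replicate 1, with a baseline of 6.41 windows, had more than pupa replicate 1 with 9.73 and adult replicate 1 with 9.04. A region called in both lists of a later stage is not counted here, and the part of the baseline in these numbers was not tested. The median weaker fold enrichment of these 829 regions in the egg was 2.93, beside 2.84 for the egg-only regions, and the median fold enrichment in the single later list lay between 2.24 and 3.02. On the other side of the rule, 4881 regions were called in egg replicate 1 alone and 2993 in egg replicate 2 alone, with median fold enrichments of 3.09 and 2.99. If 1 egg list alone had been asked for, the rule would have given 5907 regions from replicate 1 or 4013 from replicate 2, in place of 994.

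Regions that the egg shared with every later stage were far more frequent than egg-only regions. Among the 14996 regions in both egg lists, 8060 (53.7%) also had an interval in larva, pupa and adult, and 2920 (19.5%) in pupa and adult but not larva. Another 1230 (8.20%) were shared with the pupa alone, 572 (3.81%) with the adult alone and 226 (1.51%) with the larva alone. The 994 egg-only regions were more than those shared with the adult alone or the larva alone, and fewer than those shared with the pupa alone.

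The 2 egg samples agreed little on which egg-only regions were strong. Across the 994 regions, the fold enrichments of the 2 lists had a Spearman correlation of 0.180, and a Pearson correlation of 0.160 on the log2 scale. For −log10 (P value) the Spearman correlation was 0.0560. The points are regions of the same 2 libraries and not replicates, so no p is given. Over all regions in both egg lists the correlation of fold enrichment was 0.579, where the range of values is also wider. A closer comparison is with the 3802 pupa-only and 1741 adult-only regions, found by the same rule for those stages. Their fold enrichments spread about as narrowly, with SDs on the log2 scale of 0.402 and 0.412 in the pupal lists and 0.350 and 0.318 in the adult lists, beside 0.441 and 0.381 for egg-only regions in the egg lists. Their correlations were 0.539 and 0.535. The egg lists also agreed less than the pupal and adult lists over all their regions. The correlation was 0.579, beside 0.781 for the regions in both pupal lists and 0.843 for those in both adult lists. It was not computed for the regions in both larval lists. The paper reports high Pearson correlations between the replicates of every stage, from read coverage over the genome and not from peak values. The low agreement was thus not limited to the egg-only regions. The 31 larva-only regions had a correlation of 0.150.

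**Figure D3:**
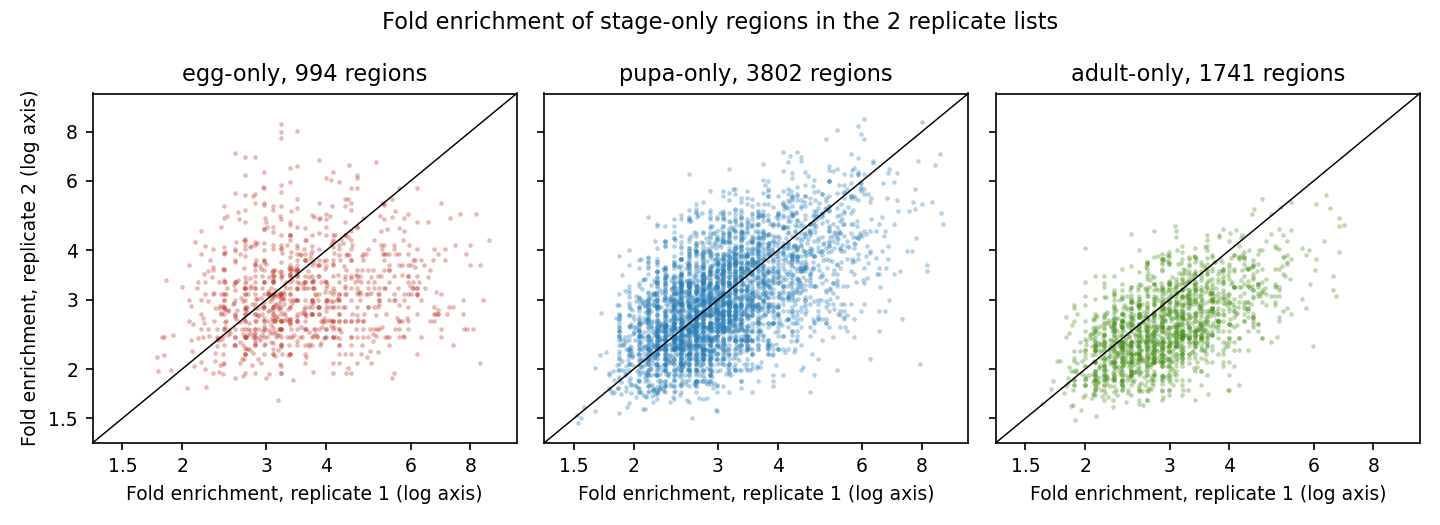
Fold enrichment in replicate 2 (vertical axis, log scale) against fold enrichment in replicate 1 (horizontal axis, log scale) for egg-only, pupa-only and adult-only regions, 1 point per region, with the line of equal values. The egg-only points form a round cloud (Spearman correlation 0.180), while the pupa-only and adult-only points lie along the line or parallel to it (0.539 and 0.535).

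The region that stood highest in either egg list was well below that level in the other list. The highest fold enrichment of replicate 1, at NC_015762.1 from 777231 to 777663, was 8.77 with a pileup of 67, and in replicate 2 the same region had 4.25 with a pileup of 36. The highest of replicate 2, at NC_015772.1 from 3688528 to 3688912, was 8.39 with a pileup of 72, and in replicate 1 it had 3.22 with a pileup of 24. These 2 regions were singled out after their values were seen. The backgrounds were at the baseline in both lists at both regions, so the differences lay in the pileups.

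The log2 ratio of the 2 egg lists had an SD of 0.535 over the egg-only regions, where counting error of the pileups alone gives 0.375. For pupa-only regions the SD was 0.379 beside 0.315 from counting error, and for adult-only regions 0.313 beside 0.327. Over all regions in both egg lists these values were 0.536 and 0.313, so the SD was alike while the value from counting error was lower. At the same strength, with a weaker fold enrichment between 2.46 and 3.31, the SD was 0.553 for 498 egg-only regions. It was 0.633 for 3610 regions that were also called in another stage. The 2 egg samples are separate pools, so they can differ by more than counting error. All these regions had to pass the calling limit in both lists, and for adult-only regions the SD lay below the value from counting error. The SD can therefore not be split into a part from counting error and a part from the samples in this way. Fold enrichment was higher in replicate 1 in 654 of the 994 egg-only regions (65.8%), beside 53.3% of all regions in both egg lists. The 2 values lay within 1.5-fold of each other in 694 regions (69.8%), beside 73.1% of all regions in both egg lists. These shares were 88.2% of pupa-only regions and 90.1% of all regions in both pupal lists, and 89.2% of adult-only regions and 89.4% of all regions in both adult lists.

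The best summits of the 2 lists lay a median of 29 bp apart (quartiles 13 and 61 bp), and in 690 regions, or 69.4% (95% Clopper-Pearson interval 66.4% to 72.3%), they lay within 50 bp. The rule keeps distances short, since the 2 intervals must fall in the same merged region. This was 75.4% over all regions in both egg lists, 78.7% for pupa-only regions and 75.8% for adult-only regions. At the same strength, with a weaker fold enrichment between 2.46 and 3.31, the median distance was 29 bp both for 498 egg-only regions and for 3610 regions that were also called in another stage.

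Egg-only regions were short and mostly had a single summit. Their merged width ran from 201 to 1352 bp with a median of 361 bp, beside 381 bp for pupa-only and 345 bp for adult-only regions. The interval of replicate 1 had a median width of 309 bp and that of replicate 2 of 275 bp, not far above the smallest possible width of 200 bp. More than 1 summit was listed in 56 regions (5.63%) in replicate 1 and in 53 (5.33%) in replicate 2, beside 17.1% and 23.0% of all regions in both egg lists. In their own lists the shares were 7.26% and 10.8% for pupa-only and 4.37% and 8.62% for adult-only regions. Only 5 regions held more than 1 interval of replicate 1, and 2 held more than 1 of replicate 2. At the same strength, the intervals of egg-only regions were 303.5 and 271 bp wide, and those of the regions also called in another stage 322.5 and 316 bp, in replicates 1 and 2.

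The local background of egg-only regions was at the genome-wide baseline in 49.5% of regions in replicate 1 and 56.2% in replicate 2, beside 39.7% and 36.3% of all regions in both egg lists. Pupa-only regions, with 56.3% and 48.9%, and adult-only regions, with 56.5% and 53.0%, were similar in their own lists. At the same strength these shares were 50.4% and 55.6% for egg-only regions and 42.0% in both lists for the others. The nearest region called in all 8 samples lay a median of 14.2 kb away, beside 19.7 kb for pupa-only and 15.7 kb for adult-only regions and 10.2 kb for all regions in both egg lists. The regions of any later stage include those called in all 8 samples, so the nearest of them cannot lie farther away. It lay at a median of 1406.5 bp, and 398 egg-only regions (40.0%) had such a region within 1 kb. Of these 398 neighbours, 292 held a pupal, 219 an adult and 117 a larval interval, and 132 were also called in both egg lists. The lists differed in the same order, with 26493 and 31105 placed intervals in the pupa, 20993 and 24817 in the adult, and 11768 and 7875 in the larva. No other set of regions is set beside these counts, and a preference for neighbours of a stage was not tested.

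The 7 regions with −log10 (P value) above 20 in both egg lists are the best supported ones. The strongest by the weaker fold enrichment was NC_015765.1 from 3754603 to 3755358, where the fold enrichment was 6.19 and 5.75 and the pileup 47 and 49 in replicates 1 and 2. The next was NC_015770.1 from 13452340 to 13452817, with 5.67 and 5.75 and pileups of 43 and 49, and no region of a later stage within 13698 bp. At both regions the values of the 2 egg samples were nearly equal.

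NC_015762.1 from 10802148 to 10802787 showed fold enrichments of 5.50 and 5.40, with pileups of 50 and 46. NC_015771.1 from 4847795 to 4848127 had 6.96 and 5.29, with pileups of 53 and 45, and its 2 summits lay 3 bp apart. NC_015766.1 from 4969320 to 4969639 had 5.56 and 5.05, with pileups of 68 and 51. In these 3 regions replicate 1 was the higher one.

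NC_015774.1 from 4181049 to 4181534 showed almost equal fold enrichments, 5.23 and 5.27, although the pileup was 50 in replicate 1 and 96 in replicate 2. The background there was 8.76 windows in replicate 1 and 17.4 in replicate 2, so the second library had more cut ends both at the summit and around it. NC_015778.1 from 59671 to 59966 was alike, with fold enrichments of 4.40 and 3.58, pileups of 70 and 104 and backgrounds of 15.1 and 28.4. It had the highest weaker −log10 (P value) of all egg-only regions, 24.6, and its summits were 1 bp apart.

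A further 4 regions completed the 10 with the highest weaker fold enrichment. NC_015763.1 from 11696964 to 11697372 had 5.29 in both replicates, and NC_015773.1 from 4141473 to 4141838 had 5.29 and 5.21 with summits 1 bp apart. NC_015764.1 from 7765123 to 7765516 had 5.09 and 6.69, and a region of a later stage began 279 bp away. NC_015766.1 from 10782199 to 10782541 had 5.93 and 4.94, and its nearest other egg-only region was 326742 bp away. Its weaker fold enrichment was tied with that of 2 regions that came after it by position and are not given. In the 10 regions the weaker fold enrichment ran from 4.94 to 5.75, close to the upper end of 5.75 for the whole set.

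The widest egg-only region, NC_015765.1 from 12488751 to 12490102, was 1352 bp long. It had 1 summit in replicate 1 and 3 in replicate 2, with fold enrichments of 5.17 and 4.89, and its best summits were 783 bp apart, the largest distance in the set. NC_015774.1 from 7379539 to 7380546 spanned 1008 bp, with fold enrichments of 2.22 and 3.49, and NC_015766.1 from 5630351 to 5631332 spanned 982 bp, with 4.23 and 3.47. The region with the most summits, NC_015768.1 from 2163302 to 2164110, had 3 in each list within 809 bp, with fold enrichments of 3.48 and 3.68. NC_015773.1 from 9137216 to 9138052 had 2 summits in each list, with 5.23 and 4.02. It was one of 14 regions with 4 summits over both lists, ranked among them by the weaker −log10 (P value).

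The weakest egg-only regions lay just above the calling limit. NC_015766.1 from 4921088 to 4921400 had a −log10 (P value) of 2.56 in replicate 1 and 4.25 in replicate 2, with a pileup of 20 in each. NC_015767.1 from 5983649 to 5984016 had 7.25 and 2.59, with pileups of 24 and 16. The 2.59 of the latter was shared by 9 egg-only regions in all, of which the first by position is given. At the edge of the overlap rule, 21 egg-only regions lay within 100 bp of a merged region that held an interval of a later stage. Of these 21 neighbours, 16 also held an egg interval, so the near edge need not be that of a later stage. The strongest of the 21 by the weaker −log10 (P value) was NC_015765.1 from 7324431 to 7324874. It had fold enrichments of 4.08 and 3.13 and lay 61 bp from its neighbour. Next were NC_015767.1 from 275310 to 275663, with 4.16 and 3.95 and 3 bp, and NC_015771.1 from 12222033 to 12222612, with 4.70 and 3.10 and 74 bp. Joining intervals within 100 bp left 979 egg-only regions.

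Egg-only regions were found on all 18 chromosomes, at 4.59 per Mb of chromosome up to the last peak, beside 17.5 pupa-only and 8.03 adult-only regions per Mb. The largest number was 90 on NC_015768.1 and the smallest 16 on NC_015778.1. Per Mb, the range was from 2.79 on NC_015776.1, with 32 regions, to 8.66 on NC_015779.1, with 30 regions, and 7.99 on NC_015774.1, with 79 regions. Chromosomes with more regions in both egg lists per Mb had more egg-only regions per Mb (Spearman correlation 0.715 over 18 chromosomes), while the correlation was 0.102 with pupa-only and 0.0712 with adult-only regions per Mb. As the egg-only regions are part of the regions in both egg lists and share their libraries, these are descriptions.

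As a share of the regions in both egg lists, egg-only regions made up between 4.01% on NC_015776.1 (32 of 799, 95% Clopper-Pearson interval 2.76% to 5.61%) and 9.80% on NC_015774.1 (79 of 806, 7.84% to 12.1%). On these 2 chromosomes alone the interval did not include the 6.63% of all chromosomes together. The intervals treat neighbouring regions as independent, which they are not, and 18 chromosomes were looked at. Egg-only regions were not concentrated at chromosome ends. The first and last 10% of a chromosome's length held 20.02% of them, beside 21.8% of all regions in both egg lists.

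**Figure D4:**
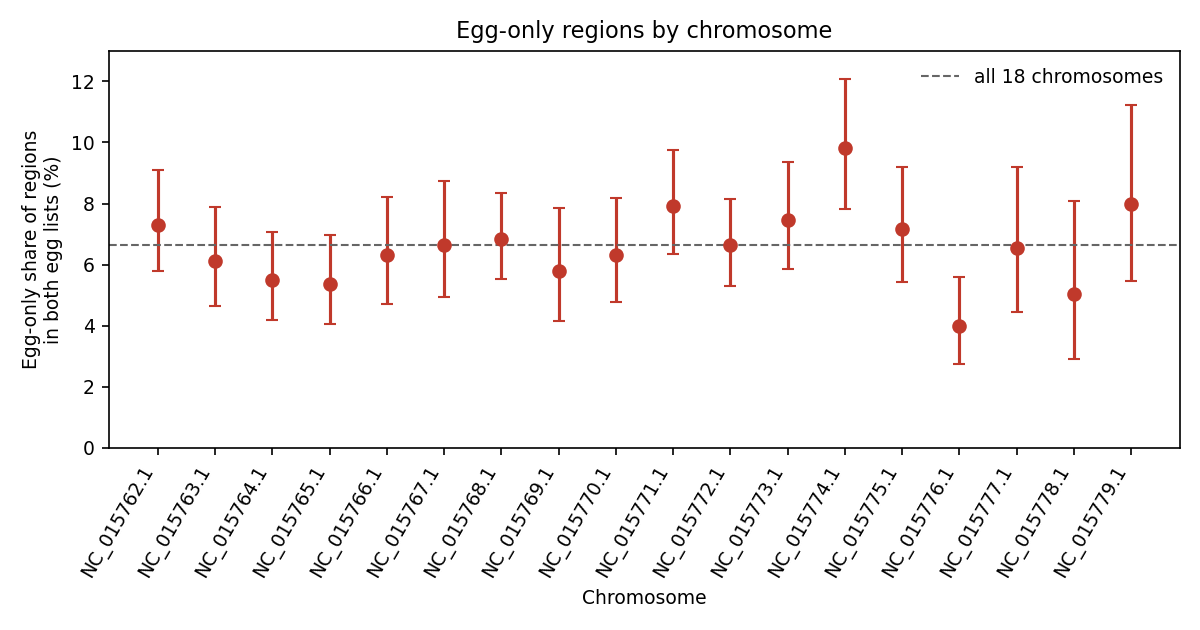
Share of egg-only regions (vertical axis, %) among the regions in both egg lists, for each of the 18 placed chromosomes (horizontal axis), with 95% Clopper-Pearson intervals. The dashed line is the share over all chromosomes, 6.63%, and the intervals of NC_015774.1 (9.80%) and NC_015776.1 (4.01%) do not include it.

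Most egg-only regions stood alone or in small groups. The nearest other egg-only region lay a median of 48.8 kb away. Another lay within 50 kb of 503 regions, or 50.6% (95% Clopper-Pearson interval 47.4% to 53.8%). Within their own sets, which are larger, this share was 98.9% of all regions in both egg lists, 86.2% of pupa-only and 67.1% of adult-only regions. The median gap was 0.224 of the mean spacing of the egg-only regions along the chromosomes. The same ratio was 0.212 for pupa-only, 0.209 for adult-only and 0.207 for all regions in both egg lists, so that relative to their number the egg-only regions lay about as close together as those sets. When neighbours within 50 kb were chained, 491 regions remained single, 266 formed 133 pairs and 135 formed 45 groups of 3. There were 16 groups of 4, 5 groups of 5, 1 of 6 and 1 of 7. Of the 5 groups of 5, 3 lay on NC_015774.1.

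The group of 7 spanned NC_015770.1 from 859854 to 994147, a stretch of 134.3 kb. Of the 11 regions called in both egg lists in this stretch, 7 were egg-only, and 35 regions of any kind lay there. It was picked as the largest group, so the count is a description. From left to right, the fold enrichments in replicates 1 and 2 were 3.87 and 3.79 at 859854 to 860102, 4.40 and 3.90 at 900648 to 900910, and 3.78 and 2.53 at 943169 to 943710. They were 4.78 and 4.83 at 945544 to 946063, and 4.51 and 3.22 at 970421 to 970708. The last 2 had 4.45 and 5.40 at 970810 to 971293, and 6.19 and 3.22 at 993798 to 994147.

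In this group the weaker fold enrichment had a median of 3.79, above the 2.84 of all egg-only regions, and the summits of the 2 lists lay between 2 and 47 bp apart. The fifth and sixth regions were separated by 101 bp. The next largest group had 6 egg-only regions on NC_015775.1 from 3103410 to 3233042, among 16 regions in both egg lists, with a median weaker fold enrichment of 2.85. The tightest group of 5 lay on NC_015771.1 from 2082176 to 2121733, within 39.6 kb.

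In comparison with the same rule in the other stages, the egg had fewer regions of its own than the pupa and the adult. Pupa-only regions were 17.4% of the regions in both pupal lists, adult-only regions 10.1% of those in both adult lists, and larva-only regions 0.514% of those in both larval lists. Under both thresholds planned for all lists the adult stayed above the egg, with 553 egg-only and 844 adult-only regions at −log10 (P value) of at least 10, and 130 and 632 with the same number of intervals in every list. With a fold enrichment of at least 2.5 in all 8 lists, the setting chosen after seeing the data, the order turned, with 1151 egg-only, 2870 pupa-only and 956 adult-only regions. Each of these numbers rests on 2 samples of a stage, so no error can be given, and no test between stages was made, since the calls themselves chose the regions.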

How the data were processed

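ATAC-seq was run on 8 samples. The authors aligned 50 bp read pairs to Bter_1.0 with Bowtie2 2.2.5, keeping up to 200 alignments per read, and called peaks per sample with MACS2 2.2.5 (shift -100 bp, window 200 bp, genome size 217000000 bp, q-value limit 0.05 from the values). The deposited lists hold fold enrichment (a ratio to the library's own background), the p-value and q-value as −log10, and a score that was not used. They are the candidate peaks, before the paper's filter for peaks reproducible between replicates. The values in these lists were not normalized between samples, and no control library is stated.

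Distinct intervals on placed chromosomes were merged at an overlap of 1 bp, and each took its best summit by −log10 (P value). Pileup and background were solved from fold enrichment, as (pileup + 1) / (background + 1), and the Poisson p-value of the caller. They cover counting error only. Merging and solving were tested on simulated data. Groups were taken from the labels. No test was run, because the calls chose the regions. Regions named by position were the 10 with the highest weaker fold enrichment, the 5 with the highest weaker −log10 (P value) and the 3 widest. Also named were the 3 with most summits, the largest group and the 2 weakest. The last were the 3 strongest within 100 bp of a merged region with an interval of a later stage. Ties were broken by the other strength measure, then by position. The members and lists were chosen with earlier results of these data known. Positions are 1-based. Genes and sequence of Bter_1.0 were not used here. Python 3.11.15, numpy 2.4.6, scipy 1.17.1, pandas 2.3.3 and matplotlib 3.10.9 were used.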

Additional observations from a re-analysis of the deposited data

Results flagged for a closer look

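Contigs without a chromosome in Bter_1.0 were outside the comparisons above, and the same rule found 120 egg-only regions there. This was 2.37% of the 5056 regions in both egg lists on these contigs, beside 6.63% on the chromosomes. They are given because they lie in data not used above. Their median weaker fold enrichment was 3.10 and the highest was 6.44.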

How the results depend on the processing

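The number of egg-only regions (994) stayed within 1.5-fold when intervals within 100 or 500 bp were merged (979 and 813), when an overlap of at least 50% of the shorter interval or summits within 100 bp were asked for (999 and 1082), and when both larval lists were left out (1220). Leaving out single lists gave 1010 to 5907, and only leaving out egg replicate 1 (4013) or 2 (5907) moved the number by more than 1.5-fold. Egg intervals with −log10 (P value) of at least 10 gave 175 and of at least 20 gave 7. With at least 10 in all 8 lists there were 553 egg-only and 844 adult-only regions, and with the 12331 strongest intervals of every list 130 egg-only, 919 pupa-only and 632 adult-only regions. A fold enrichment of at least 2.5, chosen after seeing the data, moved the adult-only regions to 956.

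With egg intervals of −log10 (P value) of at least 10, the median fold enrichment was 4.51 and 4.02, the median −log10 (P value) 15.9 and 13.3, the rank correlation 0.278 and the share of summits within 50 bp 83.4%. Ranked by −log10 (P value) the correlation was 0.0560. The median width was 309 and 275 bp by the single lists. Another egg-only region lay within 10 kb in 19.0% and within 100 kb in 69.8%. Above 10 in place of 20 in both egg lists were 17.6% of egg-only regions and 59.3% of all regions in both, and the lowest summit lowered the latter to 23.2% above 20. No paired analysis was possible because no result comes from a test. The lists hold no reads of uncalled regions, so a signal below the calling limit in a later stage was not detectable.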
